A study of Mus musculus with 6 samples.

Results

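The genes described were 10 components of the retinoblastoma (RB) pathway: the D cyclins Ccnd2 and Ccnd3, the kinases Cdk4 and Cdk6, the INK4 inhibitors Cdkn2c and Cdkn2d, the CIP/KIP inhibitors Cdkn1a and Cdkn1b, and the pocket proteins Rb1 and Rbl2. They were chosen by name for their place in the pathway, and each symbol matched 1 of the 28773 gene IDs in the expression files. RNA was sequenced from splenic CD8+ T cells on day 35, in 3 samples labelled MWA+PBS (1 to 3) and 3 labelled MWA+2DG (4 to 6). Mice of both groups had their tumor treated by microwave ablation (MWA), so no sample came from a mouse without ablation. MWA+PBS mice then received the PBS vehicle, and MWA+2DG mice received 2-deoxy-D-glucose (2DG), a glucose analogue that blocks glycolysis. The study isolated the CD8+ T cells with an isolation kit, and per its methods the 2DG injections had ended before day 35. The sources used here give neither the strain and tumor line of these particular samples nor the number of mice behind each, so the p-values measure only the spread between these samples, which may in part be technical.

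The RB pathway sets whether a resting T cell enters the cell cycle. Antigen and growth signals raise the D cyclins, which bind CDK4 or CDK6, and the active kinase phosphorylates the pocket proteins and frees the E2F factors that turn on genes for DNA replication. INK4 proteins bind CDK4 and CDK6 directly, CIP/KIP proteins bind the assembled cyclin and kinase, and naive and memory T cells are known for holding the pathway off between encounters with antigen.

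Values are FPKM, which are scaled by transcript length, so levels can be compared between genes within a library. Fold changes are differences of log2(FPKM + 1), MWA+2DG minus MWA+PBS, with their standard error (SE), and a gene was called at an adjusted p under 0.05 in limma with Benjamini-Hochberg adjustment over the 12444 genes tested. Of the 10 genes, 3 were lower in MWA+2DG (Cdk6, Cdkn1a and Cdkn2c), 2 were higher (Rb1 and Rbl2) and 5 were not called. Among all tested genes 39.4% were called, 22.3% higher and 17.1% lower, so 5 of 10 lay close to what the whole transcriptome showed. The samples of the 2 groups did not overlap for the same 5 genes, against 52.1% of all genes. The median log2 fold change of the 10 genes was 0.02, and that of all genes was 0.05.

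**Figure D1:**
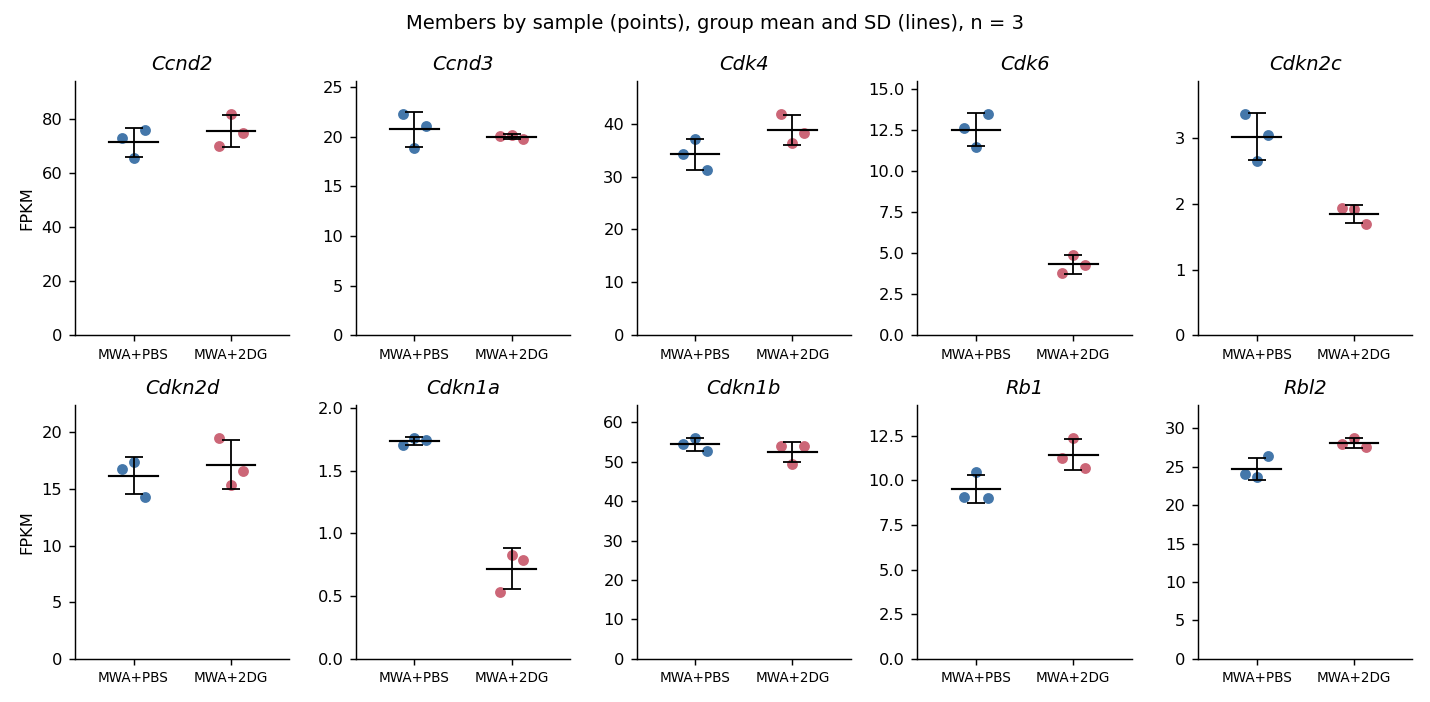
FPKM of the 10 RB pathway genes in each sample, with 1 panel per gene, points for the 3 MWA+PBS and 3 MWA+2DG samples, and lines for the group mean and SD. Cdk6, Cdkn2c and Cdkn1a lay lower in every MWA+2DG sample than in any MWA+PBS sample, Rb1 and Rbl2 lay higher, and the groups overlapped for the other 5 genes.

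The order of levels was nearly shared by the groups. In MWA+PBS, mean FPKM ran from Ccnd2 (71.4) through Cdkn1b (54.4), Cdk4 (34.2), Rbl2 (24.7), Ccnd3 (20.7), Cdkn2d (16.2), Cdk6 (12.5), Rb1 (9.53) and Cdkn2c (3.03) to Cdkn1a (1.73). In MWA+2DG only Cdk6 and Rb1 traded places, with Rb1 at 11.4 and Cdk6 at 4.31. Neighbours in either order had sample ranges that did not overlap, in all 9 neighbouring pairs of each group.

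FPKM totals were 291803 to 313257 over the 6 samples. The MWA+PBS samples had 12480 to 12515 genes at an FPKM of at least 1 and 21.4% to 22.8% of their FPKM in mitochondrial genes. The MWA+2DG samples had 12198 to 12282 such genes and 19.4% to 20.7%, so the groups did not overlap in either measure. Defining markers of the labelled cell type were high: Cd8a (a CD8 chain) was 225.8 to 239.3 FPKM in the MWA+PBS samples and 359 to 377.1 in the others, and Cd3e (a chain of the T cell receptor complex) was 88.71 to 104.4 and 117.5 to 142.1. Cd4 (the helper T cell co-receptor) was at most 2.91. Genes of other cells were also present and differed between the groups, as set out after the pathway results.

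The promoters of the 2 genes with the largest fold changes, Cdk6 and Cdkn1a, are shown first, as the regulatory sequence next to the transcripts that fell most. The bases before the annotated start come from RefSeq (GRCm38.p6, the reference strain and not these mice), 5′ to 3′ on the gene's strand. Capitals mark p53 decamers in the first Cdkn1a window and GC boxes (GGGCGG) in the second, and the Cdk6 stretch, the part of its window outside annotated untranslated exons, held no match. The windows are Cdkn1a upstream start chr17:29090729-29090978 (+), Cdkn1a downstream start chr17:29093519-29093768 (+) and Cdk6 chr5:3343789-3343892 (+).
Cdkn1a upstream start: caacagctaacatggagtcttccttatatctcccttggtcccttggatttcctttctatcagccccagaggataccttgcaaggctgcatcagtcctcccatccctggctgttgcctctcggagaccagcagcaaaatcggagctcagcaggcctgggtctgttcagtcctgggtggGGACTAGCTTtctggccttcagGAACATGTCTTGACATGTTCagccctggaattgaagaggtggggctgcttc
Cdkn1a downstream start: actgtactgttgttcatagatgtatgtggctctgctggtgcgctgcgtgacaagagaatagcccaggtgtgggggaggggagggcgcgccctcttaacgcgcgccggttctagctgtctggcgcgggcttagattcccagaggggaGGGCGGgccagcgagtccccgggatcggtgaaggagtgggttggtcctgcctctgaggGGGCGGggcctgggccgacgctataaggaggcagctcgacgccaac
Cdk6: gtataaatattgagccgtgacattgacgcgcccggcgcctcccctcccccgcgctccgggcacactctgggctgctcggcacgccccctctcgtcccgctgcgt

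In the upstream Cdkn1a window, 2 p53 decamers stood side by side from 51 to 32 bases before the start (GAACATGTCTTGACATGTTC), the arrangement p53 is known to bind. Such a pair, with both cores intact and at most 1 mismatch elsewhere in a decamer, was found in 15 of 32851 RefSeq promoters (0.0457%), and this search was chosen after the expression values were seen. A single p53 decamer without mismatch occurred in 7.13% of promoters, and besides Cdkn1a in the window of Cdkn2d (GGGCTTGCCT, 102 to 93 bases before the start). The E2F letters TTTCCCGC, TTTGGCGC, TTTCGCGC and TTTGCCGC, sought on both strands, were in 0 of the 11 windows found for 8 of the 10 genes and in 1.86% of all promoters. The CHR letters TTTGAA, a motif of cell cycle genes, were in the Rbl2 window, 201 to 196 bases before the start on the opposite strand, and in 16% of all promoters. GC boxes, bound by Sp factors, were in 7 of the 11 windows (both of Ccnd3, 1 each of Cdk4, Cdkn2c, Cdkn2d, Cdkn1a and Cdkn1b) and in 32.7% of all promoters. A match in these windows is a description of letters and not of binding.

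Neither D cyclin was called. Ccnd2 (ENSMUSG00000000184), the D cyclin that lymphocytes raise on mitogen or antigen signals, was 72.79, 65.46 and 75.95 FPKM in MWA+PBS and 70.09, 81.71 and 74.62 in MWA+2DG. The groups overlapped, and the log2 fold change was 0.08 ± 0.08 (SE, n = 3 per group, 95% interval -0.10 to 0.26, limma adjusted p = 0.46). Ccnd3 (ENSMUSG00000034165), the D cyclin needed for the expansion of immature thymocytes, was 22.28, 18.88 and 21.06 FPKM in MWA+PBS and 20.11, 20.18 and 19.79 in MWA+2DG. Its MWA+2DG samples fell inside the MWA+PBS range (-0.05 ± 0.07, 95% interval -0.20 to 0.11, limma adjusted p = 0.629).

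Ccnd2 was the main D cyclin in every sample. It held 75.6% ± 1.10 (SD, n = 3) of the summed FPKM of Ccnd1, Ccnd2 and Ccnd3 in MWA+PBS and 77.9% ± 1.14 in MWA+2DG, with overlapping samples. The sum itself was 94.4 ± 6.44 and 96.8 ± 6.12 FPKM, also overlapping. Ccnd1, the family's low member here and named for that reason after its values were seen, was 2.27, 2.65 and 1.79 FPKM in MWA+PBS and 1.10, 1.49 and 1.22 in MWA+2DG. It was called lower (-0.51 ± 0.13, limma adjusted p = 0.0155), which took its share of the 3 cyclins from 2.40% ± 0.620 to 1.31% ± 0.121.

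The kinases that the D cyclins activate parted. Cdk6 (ENSMUSG00000040274), the partner known for its prominence in blood cells, was 12.61, 11.49 and 13.48 FPKM in MWA+PBS and 3.78, 4.90 and 4.26 in MWA+2DG. Every MWA+2DG sample lay below every MWA+PBS sample by more than the spread within either group, and the mean was 2.90-fold lower (12.5 ± 0.998 and 4.31 ± 0.562 FPKM, SD, n = 3). The log2 fold change was -1.35 ± 0.09 (95% interval -1.57 to -1.13, limma adjusted p = 4.39e-05), and Cdk6 stood at place 268 among the decreases of the 12444 genes. As in any bulk sample, fewer cells that express a gene and less RNA per cell cannot be told apart.

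Cdk4 (ENSMUSG00000006728), the other kinase of the pair, was 34.25, 37.08 and 31.26 FPKM in MWA+PBS and 41.79, 36.34 and 38.19 in MWA+2DG. The groups overlapped in that MWA+PBS 2 exceeded MWA+2DG 5, and the difference was not called (0.18 ± 0.08, 95% interval -0.01 to 0.36, limma adjusted p = 0.115). Without MWA+PBS 2 it was called (0.24, limma adjusted p = 0.0465), and likewise with sample weights (0.20, limma adjusted p = 0.0314). With T lineage scaling, which moves every gene down alike, it was called in the other direction (-0.26, limma adjusted p = 0.00647).

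The ratio of Cdk4 to Cdk6, which does not depend on how a library is scaled, was 2.72, 3.23 and 2.32 in MWA+PBS and 11.1, 7.42 and 8.96 in MWA+2DG. The groups did not overlap, and the log2 ratio differed by 1.73 between the group means. Of the summed FPKM of both kinases, Cdk6 made up 26.9% ± 3.24 in MWA+PBS and 10.1% ± 1.79 in MWA+2DG (SD, n = 3). That sum was 46.7 ± 1.92 and 43.1 ± 2.23 FPKM, with overlapping samples. These ratios and sums are descriptions, without a test.

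**Figure D2:**
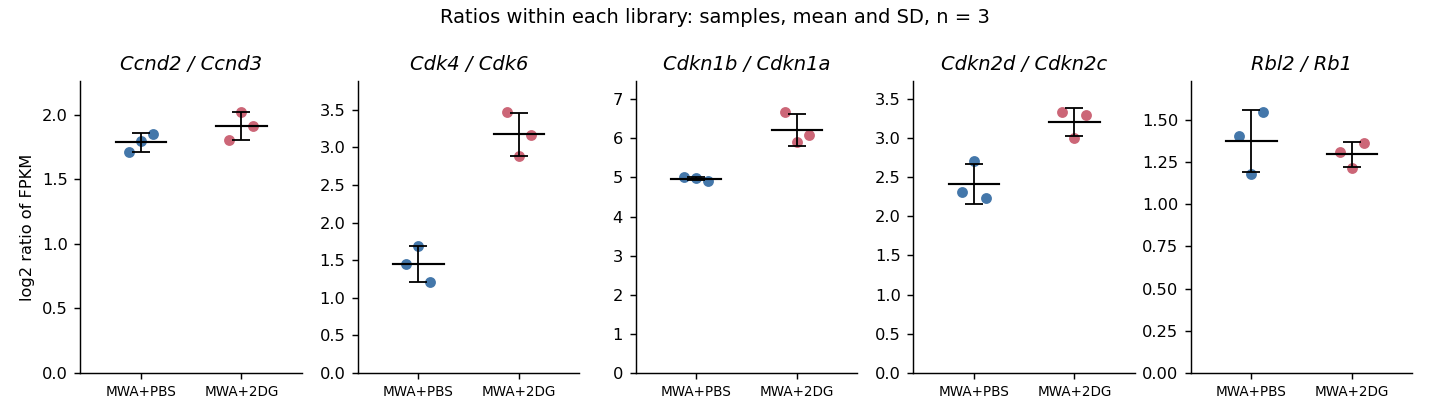
Log2 ratio of FPKM between the partners of each family, with points for samples and lines for the mean and SD of 3 samples per group. The groups overlapped for Ccnd2 to Ccnd3 and for Rbl2 to Rb1, and every MWA+2DG sample lay above every MWA+PBS sample for Cdk4 to Cdk6, Cdkn1b to Cdkn1a and Cdkn2d to Cdkn2c.

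Of the INK4 inhibitors, the scarcer one fell. Cdkn2c (ENSMUSG00000028551), an INK4 protein known for limiting the division of activated lymphocytes, was 3.37, 2.66 and 3.05 FPKM in MWA+PBS and 1.94, 1.92 and 1.69 in MWA+2DG. The groups did not overlap, and the mean was 1.64-fold lower in MWA+2DG (-0.50 ± 0.09, 95% interval -0.71 to -0.28, limma adjusted p = 0.00506). Cdkn2d (ENSMUSG00000096472), its close relative, was 16.77, 17.41 and 14.30 FPKM in MWA+PBS and 19.52, 15.37 and 16.61 in MWA+2DG. Its groups overlapped (0.08 ± 0.10, 95% interval -0.16 to 0.32, limma adjusted p = 0.572).

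Cdkn2d was the larger of the 2 in all 6 samples. The ratio of Cdkn2d to Cdkn2c was 4.98, 6.55 and 4.69 in MWA+PBS and 10.1, 8.01 and 9.83 in MWA+2DG, without overlap. The remaining INK4 genes, Cdkn2a and Cdkn2b, named as family members, were too low to be tested: Cdkn2a was 0.24, 0.21 and 0.11 FPKM in MWA+PBS and was listed at 0 in the 3 MWA+2DG samples, and Cdkn2b was at most 0.32. Cdkn2d held 82.7% ± 1.55 of the summed FPKM of the 4 genes in MWA+PBS and 89.4% ± 0.943 in MWA+2DG, and the sum overlapped between groups (19.5 ± 1.79 and 19.2 ± 2.29 FPKM).

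Of the CIP/KIP inhibitors, the scarcer one was again the one called. Cdkn1b (ENSMUSG00000003031), the inhibitor known for its high level in quiescent T cells, was 54.58, 56.07 and 52.66 FPKM in MWA+PBS and 53.94, 49.51 and 53.90 in MWA+2DG. The groups overlapped (-0.05 ± 0.06, 95% interval -0.18 to 0.08, limma adjusted p = 0.484). Cdkn1a (ENSMUSG00000023067), the inhibitor that p53 is known to induce, was 1.70, 1.76 and 1.74 FPKM in MWA+PBS and 0.53, 0.83 and 0.79 in MWA+2DG.

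All 3 MWA+2DG samples had less Cdkn1a than any MWA+PBS sample, and the mean was 2.42-fold lower (-0.68 ± 0.11, 95% interval -0.92 to -0.43, limma adjusted p = 0.00208). The added 1 shrinks the change of so low a gene, and with 0.1 added the log2 fold change was -1.19 (limma adjusted p = 0.00369). Cdkn1a reached the mean FPKM of 1 needed for the test only through MWA+PBS. The ratio of Cdkn1b to Cdkn1a was 32.1, 31.9 and 30.3 in MWA+PBS and 101.8, 59.7 and 68.2 in MWA+2DG, without overlap and with a wide spread in MWA+2DG. Cdkn1b made up 96.7% ± 0.136 of the summed FPKM of Cdkn1a, Cdkn1b and Cdkn1c in MWA+PBS and 98.5% ± 0.470 in MWA+2DG, and the sum overlapped (56.3 ± 1.70 and 53.2 ± 2.43 FPKM).

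Both pocket proteins were slightly higher in MWA+2DG. Rb1 (ENSMUSG00000022105), the retinoblastoma protein that holds activating E2F factors, was 9.09, 10.46 and 9.03 FPKM in MWA+PBS and 11.26, 12.39 and 10.69 in MWA+2DG. The groups did not overlap, though the lowest MWA+2DG sample was only just above MWA+PBS 2, and the mean was 20.2% higher (0.24 ± 0.08, 95% interval 0.06 to 0.43, limma adjusted p = 0.0454). Rbl2 (ENSMUSG00000031666), the pocket protein that holds repressive E2F factors in quiescent cells, was 24.05, 23.72 and 26.36 FPKM in MWA+PBS and 27.93, 28.75 and 27.50 in MWA+2DG. It was 13.6% higher, again without overlap (0.18 ± 0.06, 95% interval 0.04 to 0.31, limma adjusted p = 0.0433).

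Both calls sat just inside the threshold and were lost in most fits with 1 library fewer, while the size of the difference changed little (log2 fold change 0.19 to 0.30 for Rb1 and 0.15 to 0.22 for Rbl2). Rb1 was no longer called without MWA+PBS 1 (limma adjusted p = 0.137), MWA+PBS 3 (0.124), MWA+2DG 4 (0.0963), MWA+2DG 5 (0.129) or MWA+2DG 6 (0.0531), and was called without MWA+PBS 2 (0.0175). Rbl2 was no longer called without MWA+PBS 1 (limma adjusted p = 0.139), MWA+PBS 2 (0.0784), MWA+2DG 4 (0.105), MWA+2DG 5 (0.115) or MWA+2DG 6 (0.0893), and was called without MWA+PBS 3 (0.0253). The ratio of Rbl2 to Rb1 overlapped between groups (2.61 ± 0.327 and 2.46 ± 0.128). Rbl1, the third pocket protein and named as such, was not called (14.0 ± 1.53 and 14.4 ± 0.629 FPKM, 0.05 ± 0.08, limma adjusted p = 0.685).

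**Figure D3:**
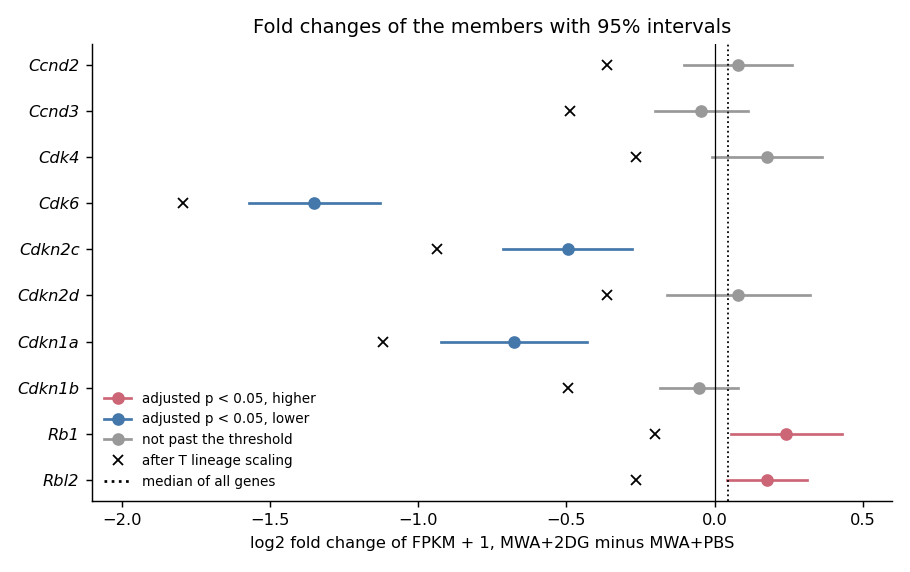
Log2 fold change of FPKM + 1 (MWA+2DG minus MWA+PBS) of the 10 genes with 95% intervals, colored by the limma call, with crosses for the value after scaling each sample to T lineage genes and a dotted line for the median of all genes. Cdk6, Cdkn1a and Cdkn2c lay below 0 under both scalings, and that scaling, which moves every gene by the same -0.44, put all 10 crosses below 0.

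Other genes of the pathway were taken as a list of 39, of which 35 were tested. In MWA+2DG 11 were called lower, 4 higher and 20 were not called, beside 17.1% of all tested genes lower and 22.3% higher, with a median log2 fold change of -0.05. The largest decreases were in E2f8, a repressive E2F that is itself raised in S phase (6.06 ± 0.197 to 2.46 ± 0.112 FPKM, -1.03 ± 0.07, limma adjusted p = 2.80e-05), Ccna2, the S phase cyclin (11.95 ± 1.05 to 5.70 ± 0.823, -0.96 ± 0.10), Skp2, which targets the Cdkn1b protein for destruction (2.85 ± 0.255 to 1.18 ± 0.0907, -0.82 ± 0.09), and Ccne2, a cyclin of the G1 to S transition (3.61 ± 1.004 to 1.61 ± 0.280, -0.81 ± 0.16). The increases were in Ccnh, a subunit of the kinase that activates CDKs (6.66 ± 1.27 to 9.55 ± 0.443 FPKM, 0.47 ± 0.11), Foxo1, a factor that promotes Cdkn1b transcription (21.1 ± 1.22 to 29.7 ± 1.61, 0.47 ± 0.07), Lin37, a subunit of the repressive DREAM complex that contains Rbl2 (9.40 ± 0.227 to 12.2 ± 0.802, 0.35 ± 0.06), and E2f5, a repressive E2F (4.85 ± 0.401 to 6.30 ± 0.947, 0.32 ± 0.10). Of the activating E2F factors, named as a class after their values were seen, E2f1 was called lower (3.50 ± 0.282 to 2.49 ± 0.153 FPKM, limma adjusted p = 0.00976), and E2f2 (8.97 ± 0.787 and 8.37 ± 0.735 FPKM, limma adjusted p = 0.445) and E2f3 (2.78 ± 0.391 and 3.22 ± 0.529 FPKM, limma adjusted p = 0.34) were not called. E2f4, a repressive E2F, was not called either (42.2 ± 0.356 and 41.9 ± 1.11 FPKM, limma adjusted p = 0.891).

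A list of 24 E2F targets, genes that dividing cells of any type express, was read next. Of these, 17 were called lower, 0 higher and 7 were not called, with a median log2 fold change of -0.40 beside 0.05 for all genes and 17.1% of all genes lower. In the same samples 18 of 19 macrophage genes, 13 of 14 erythroid genes and 4 of 20 neutrophil genes were also called lower. Those 4 were primary granule genes of immature neutrophils. Called higher were 15 of 20 neutrophil genes, 11 of 12 B cell genes and 19 of 22 T lineage genes (values given with the markers). The part of any of these cells in the E2F target difference was not tested. The largest decreases were in Mki67, a proliferation marker (34.2 ± 2.56 to 19.0 ± 1.13 FPKM, -0.81 ± 0.07), Uhrf1, which maintains DNA methylation through replication (16.4 ± 1.38 to 8.92 ± 0.524, -0.81 ± 0.08), Cdc6, which licenses replication origins (3.64 ± 0.298 to 1.66 ± 0.0666, -0.80 ± 0.08), and Rrm2, a subunit of ribonucleotide reductase (14.7 ± 0.894 to 8.07 ± 0.550, -0.80 ± 0.07). Cdkn1a was set beside a list of 20 p53 targets, of which 15 were tested. Of these 2 were called lower (Pmaip1, a pro-apoptotic protein, 6.58 ± 0.950 to 2.78 ± 0.298 FPKM, and Sesn2, a stress-induced regulator of growth signalling, 4.17 ± 0.765 to 2.17 ± 0.335 FPKM), Btg2, an antiproliferative gene, was called higher (38.4 ± 2.18 to 45.8 ± 2.36 FPKM) and 12 were not called, with a median of -0.05. Trp53 itself, looked up after the values were seen, was 42.9 ± 2.35 and 43.6 ± 1.31 FPKM and was not called (limma adjusted p = 0.758).

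**Figure D4:**
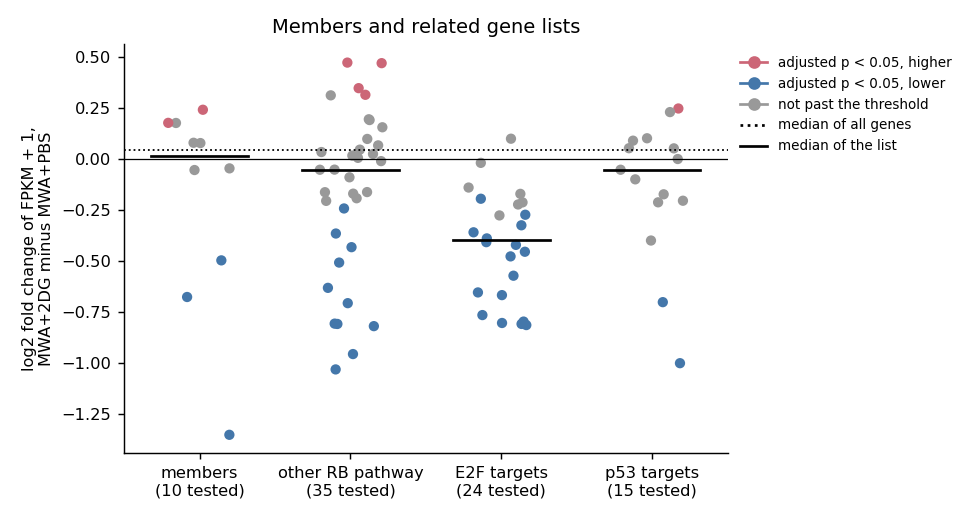
Log2 fold change of FPKM + 1 (MWA+2DG minus MWA+PBS) of each tested gene (points) in 4 lists, with a solid line for the list's median and a dotted line for the median of all genes. The E2F targets had a median of -0.40 with 17 of 24 called lower, and the medians of the other 3 lists lay between -0.05 and 0.02.

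The genes whose sample profile was most like Cdk6 and Cdkn1a were found by the largest distance between centred log2(FPKM + 1) values over the 6 samples. For Cdk6 these were Ermap (distance 0.10), Rnf144b (0.11) and Ttyh2 (0.12), with log2 fold changes of -1.28, -1.43 and -1.22. Their mean FPKM went from 2.80 to 0.57, 3.65 to 0.717 and 2.47 to 0.487, beside 12.5 to 4.31 for Cdk6. The added 1 shrinks their changes more than that of Cdk6. The likeness is therefore one of this scale, and their FPKM ratios differed from that of Cdk6. For Cdkn1a they were Acer3 (0.0519), Sh3bgrl (0.0817) and Arhgap19 (0.0968), with log2 fold changes of -0.69, -0.69 and -0.68. Their mean FPKM went from 2.08 to 0.91, 26.9 to 16.3 and 6.39 to 3.60, beside 1.73 to 0.717 for Cdkn1a. Here the added 1 shrinks the change of Cdkn1a more than those of Sh3bgrl and Arhgap19. Ermap is also in the erythroid list.

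Markers of other cells moved with the same groups as the 5 called genes. The summed FPKM of 22 T lineage genes ranged from 2315 to 2476 in MWA+PBS and, higher, from 3279 to 3535 in MWA+2DG, with 19 of 22 called higher. In what follows the MWA+PBS range comes first and the MWA+2DG range second. Macrophage genes summed to 1217 to 1291 and 362 to 397.9, with 18 of 19 tested called lower and Lyz2 higher, and their defining marker C1qa fell from 130.1 ± 7.43 to 20.3 ± 1.84 FPKM (limma adjusted p = 6.46e-07). Erythroid genes summed to 350.6 to 406.7 and 108.8 to 125.7, with 13 of 14 called lower, and the globin Hbb-bs fell from 96.9 ± 16.1 to 24.4 ± 6.10 FPKM (limma adjusted p = 0.000216). Both lists were therefore lower in the samples in which Cdk6, Cdkn1a and Cdkn2c were lower.

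Plasma cell genes summed to 923.7 to 1018 and 426.2 to 472.5 FPKM, with 4 of 7 tested called lower and 1 higher, and Jchain, the joining chain of secreted antibody, went from 62.2 ± 3.67 to 24.7 ± 1.11. Neutrophil genes summed to 425.7 to 465 and 1721 to 1911, with 15 of 20 called higher and 4 lower, and S100a8, a neutrophil calcium-binding protein, went from 5.31 ± 2.17 to 136.3 ± 12.4. B cell genes summed to 22.2 to 23.6 and 77.2 to 82.1, with 11 of 12 tested called higher and 1 lower, and Cd79a, part of the B cell receptor, went from 1.22 ± 0.261 to 12.5 ± 1.48. The 4 neutrophil genes called lower encode primary granule proteins of immature neutrophils, and they were Mpo (226.1 ± 22.2 to 33.4 ± 0.847 FPKM), Elane (47.2 ± 3.05 to 10.7 ± 1.42), Ctsg (43.0 ± 2.59 to 9.13 ± 1.51) and Prtn3 (36.2 ± 5.61 to 6.90 ± 0.344). The neutrophil list therefore held genes that moved with Cdk6 and genes that moved the opposite way.

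NK cell genes summed to 120.8 to 134.8 and 94.8 to 103.9 FPKM, with 3 of 5 tested called lower and 1 higher. The sum fell through Tyrobp (43.5 ± 2.91 to 16.9 ± 2.93) and Fcer1g (29.8 ± 1.92 to 8.19 ± 1.49), so it does not describe the list as a whole. Gzma was not called (24.8 ± 3.25 and 22.9 ± 1.63). Ncr1, an NK receptor, was called lower (6.54 ± 0.554 to 4.92 ± 0.138), and Eomes, a factor that CD8+ memory T cells also express, was called higher (22.8 ± 0.337 to 45.7 ± 1.87). Dendritic cell genes overlapped in their sum (27.8 to 33.8 and 27.0 to 31.5), which was mostly Bst2 (20.9 ± 2.45 and 24.9 ± 1.88, not called). Of 3 tested, 2 were called lower, namely Itgax (4.49 ± 0.436 to 1.75 ± 0.291) and Flt3 (2.82 ± 0.619 to 0.617 ± 0.0493). Siglech, a plasmacytoid marker, was under 1 on average in both groups. Stress and immediate early genes, which respond to handling as well as to stimulation, summed to 1993 to 2076 and 748.3 to 763.6, with 17 of 22 called lower and 2 higher. No marker in any of these lists was at 0 in all 6 samples. The part of these cells and of the stress genes in the differences of Cdk6, Cdkn1a, Cdkn2c, Rb1, Rbl2 and the other pathway, E2F target and p53 target genes was not tested.

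**Figure D5:**
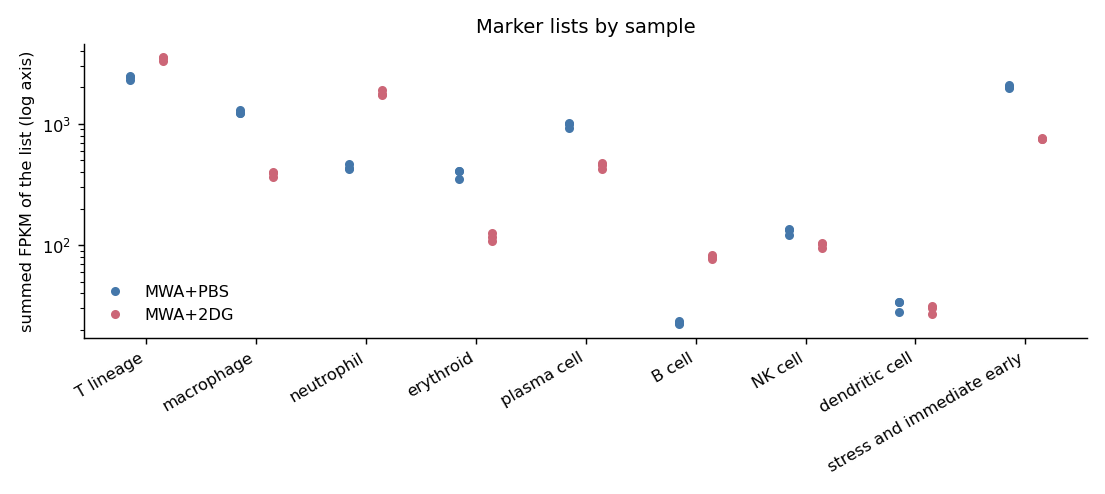
Summed FPKM (log axis) of each marker list in the 6 samples. T lineage, neutrophil and B cell sums lay higher in MWA+2DG, macrophage, erythroid, plasma cell, NK cell and stress and immediate early sums lay lower, and dendritic cell sums overlapped. The plasma cell sum was mostly Ighm, the dendritic cell sum was mostly Bst2, and the NK cell sum fell through Tyrobp and Fcer1g.

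Because T lineage genes took a larger share of the MWA+2DG libraries, the fit was repeated with each sample scaled to the mean log2 level of those genes, which lowered the median of all genes by 0.44. On that scale 9 of the 10 genes were called lower, all except Rb1, where 70.3% of all genes were. Cdk6 was then at -1.79, Cdkn1a at -1.12 and Cdkn2c at -0.94, and Ccnd3 and Cdkn1b, uncalled without it, were at -0.49 and -0.50. Rb1 was at -0.20 (limma adjusted p = 0.0696) and Rbl2 at -0.26 (limma adjusted p = 0.0129). This scaling subtracts 1 value per sample from every gene, so it moves all log2 fold changes by the same -0.44 and turns any value between 0 and that size, which is no property of Rb1 or Rbl2. By the same construction the distance of a gene from the median of all genes cannot change, and it was -1.40 for Cdk6, -0.72 for Cdkn1a, -0.54 for Cdkn2c, 0.13 for Rbl2 and Cdk4 and 0.20 for Rb1.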

How the data were processed

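RNA-seq was performed on 6 samples of splenic CD8+ T cells, 3 per group, grouped by their labels. The authors trimmed and checked reads, mapped them with HISAT2, assembled transcripts with StringTie and deposited FPKM per gene, scaled by transcript length and mapped fragments. The submitters' processing notes name cutadapt 1.9, HISAT2 2.0.4, UMI-tools, StringTie 1.3.4d and the mm9 build. FPKM holds no read counts, so read depth was unknown, counting intervals could not be computed, and a transcript that takes a larger share of a library lowers the others.

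Symbols were matched for 28689 of 28773 gene IDs in GENCODE M21. Genes with a mean FPKM of at least 1 (12444) were tested as log2(FPKM + 1) with limma 3.58.1 in R 4.3.3 (lmFit, eBayes with a trend, two-sided, no covariates, Benjamini-Hochberg over all genes tested), after a check on simulated data. This scale understates the change of low genes. Families were also described by ratios and shares of FPKM within a library. Lists of pathway genes, E2F targets, p53 targets and cell markers were written by hand. Of the pathway and target lists at most the 4 largest calls in each direction were named, and of the marker lists the defining markers. Outside this rule, Ccnd1, Cdkn2a, Cdkn2b, Rbl1, E2f1, E2f2, E2f3, E2f4, Foxo3, Foxo4 and Trp53 were named as family members or regulators. Lyz2, Mpo, Elane, Ctsg, Prtn3, Eomes, Gzma, Ighg1, Mzb1 and Prdm1 were named as exceptions within marker lists. Ighm, Tyrobp, Fcer1g and Bst2 were named for their part in a list's sum, and Itgax and Flt3 as calls. All of these were named after their values were seen. For the 2 members with the largest fold changes the 3 nearest profiles were named. The 10 genes and all lists were chosen with earlier results of these data known. Promoter windows of 250 bases before the start came from RefSeq by symbol, not by coordinate, since that build (GRCm38.p6) differs from mm9. The alternatives were a pseudocount of 0.1, no filter, a mean FPKM of at least 5, quantile, median ratio and T lineage scaling, rescaling after removing ribosomal protein, haemoglobin, immunoglobulin and mitochondrial genes, eBayes without a trend, arrayWeights, leaving out each sample, and the study's rule for the gene count (P under 0.05 and an absolute log2 fold change over 0.25).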

Additional observations from a re-analysis of the deposited data

How the results depend on the processing

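Cdk6 was called lower under all 15 alternatives (log2 fold change -1.79 to -1.28), and Cdkn1a and Cdkn2c were called lower under the 14 in which they were tested (-1.19 to -0.59 and -0.94 to -0.44). A mean FPKM of at least 5 left those last genes untested. T lineage scaling, which moved every gene by -0.44 and so had to turn each small positive value, gave negative values for Ccnd2 (-0.36, limma adjusted p = 0.00979), Cdk4 (-0.26, 0.00647), Cdkn2d (-0.36, 0.0053), Rb1 (-0.20, 0.0696) and Rbl2 (-0.26, 0.0129). Leaving out 1 sample reversed uncalled genes near 0, namely Ccnd3 (0.0058 without MWA+PBS 1, range -0.11 to 0.0058) and Cdkn2d (-0.00014 without MWA+PBS 3 and -0.0108 without MWA+2DG 4, range -0.0108 to 0.15). Rb1, at 0.24 in the reported fit, also lost its call without a filter (0.24, limma adjusted p = 0.0865), with quantile normalization (0.22, 0.0725), with median ratio scaling (0.20, 0.0875) and without a trend (0.24, 0.0576). Rbl2, at 0.18, lost its call under these 4 (0.18, 0.17, 0.13 and 0.18, with limma adjusted p of 0.059, 0.0861, 0.162 and 0.0691) and after ribosomal protein, haemoglobin, immunoglobulin and mitochondrial genes were removed from the scaling (0.17, 0.0668). Genes called numbered 4907, with 3669 to 5152 on leaving out each sample, 2951 with a mean FPKM of at least 5, where only 7313 were tested, and 9204 with T lineage scaling. The share higher was 56.5%, and 48.6% with median ratio scaling, 49.3% without a filter and 4.9% with T lineage scaling. The figures with T lineage scaling follow from its shift of every gene by -0.44. Beyond that and the number of genes tested, the cause of these changes was not tested. No paired analysis was possible because the groups share no replicate number (1 to 3 against 4 to 6). No isolation or sequencing batch is in the labels, and any that coincided with treatment cannot be told apart from it.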
